A study of Rattus norvegicus with 4 samples.

Results

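The comparison described here is 48 h against 24 h of culture in normal glucose, the control medium of a high glucose experiment on primary cardiomyocytes of newborn rats. It rests on 2 of the series' 4 libraries, chosen by their titles, with 1 library at each time. Heart muscle cells came from Sprague-Dawley rats aged 1 to 2 days and were kept in medium M199 with 2 mM carnitine, 5 mM creatine and 5 mM taurine. The normal glucose medium held 5 mmol/l glucose together with 28 mmol/l mannitol, which matched its osmolality to that of the high glucose medium at 33 mmol/l glucose. Both libraries of the comparison therefore carried mannitol, and they differed by label in time alone. The labels give no batch, no number of animals behind a culture and no separate cultures, so no value for the spread between cultures could be had, and no p-value is printed.

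Long non-coding RNAs (lncRNAs) are transcripts that carry no long protein-coding frame. Some act in the nucleus on the chromatin of nearby genes, others bind proteins or microRNAs in the cytoplasm, and many have no known role. They are often expressed in few cell types and at lower levels than messenger RNAs, and a single lncRNA gene can yield several overlapping spliced forms. Cardiomyocytes of newborn rats adapt to culture over the first days, and non-muscle cells that come along from the heart can divide in the dish. A comparison of control cultures at both times therefore shows how far their lncRNA levels differ when glucose stays the same. With 1 library at each time, a difference with time cannot be told apart from one between cultures or libraries.

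The tables listed 17934 lncRNA transcripts with a read in at least 1 of the 4 libraries. Of these, 16228 were listed in both normal glucose libraries. The measured set was defined by a mean of at least 1 FPKM (read counts scaled by transcript length and by the library total) over all 4 libraries and held 7321 transcripts, of which 40 were not listed at 24 h and 43 not at 48 h. The other 10613 were left out, and 84 of them lay past the 2-fold threshold used here. Just inside the filter, 3 transcripts with a mean FPKM of 1.0005 to 1.0006 had between 4 and 13 reads in a normal glucose library, and just outside it 3 with 0.9987 to 0.9990 had between 0 and 22. Such low counts limit what can be said near the filter. The measured set held 6986 NONCODE, 109 Ensembl and 226 newly assembled transcripts. The files do not pair identifiers with gene names, so the 2 leading identifiers in each direction are printed and all others by their coordinates in rn6, a build of the rat genome. Whether a span lies in an exon, intron or untranslated region of another gene was not analysed here, and since no protein-coding genes were analysed, the labelled cell type was not checked against its markers.

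The lncRNA counts summed to 846946 at 24 h and 1075428 at 48 h. They made up 7.13% (95% Wilson interval 7.12 to 7.15) of the library total recovered from the FPKM values at 24 h and 7.24% (7.23 to 7.25) at 48 h. The share at 48 h was thus 1.02 times that at 24 h (95% counting interval 1.01 to 1.02). The median measured transcript had 29 reads at 24 h and 36 at 48 h, and 1 read stood for 0.0842 and 0.0673 CPM, the count scaled to a common size of that total. Reads were amplified and carried no molecular identifiers, so all intervals and floors cover counting error only.

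The 2 control libraries lay close together for most lncRNA transcripts, and a small set lay far apart. On the scale of log2 (CPM + 1), the median ratio of 48 h over 24 h was 0.01 over the 7321 measured transcripts, the quartiles were -0.18 and 0.19, and 89.4% lay within 1.5-fold. At least 2-fold apart were 342 transcripts (4.67% of those measured), with 148 higher (2.02%) and 194 lower (2.65%) at 48 h. A change in level and a change in the mix of cells cannot be told apart in such bulk libraries. At least 8-fold apart were 64 (0.874%), of which 33 (0.451%) were higher and 31 (0.423%) lower. By counting error alone, 1273 ratios (17.4%) had an interval that excluded 1, 650 (8.88%) above it and 623 (8.51%) below it. Those intervals carry no spread between cultures and describe these 2 libraries alone, also where they are given beside small ratios. All 342 ratios past 2-fold had such an interval, which the threshold with a pseudocount of 1 CPM nearly ensures and which therefore adds no support. The lower of the 2 counts of these 342 transcripts had a median of 7 reads and the higher a median of 82. In 125 of the 342 the lower count was at or under 3 reads, the floor used for bounds here.

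**Figure D1:**
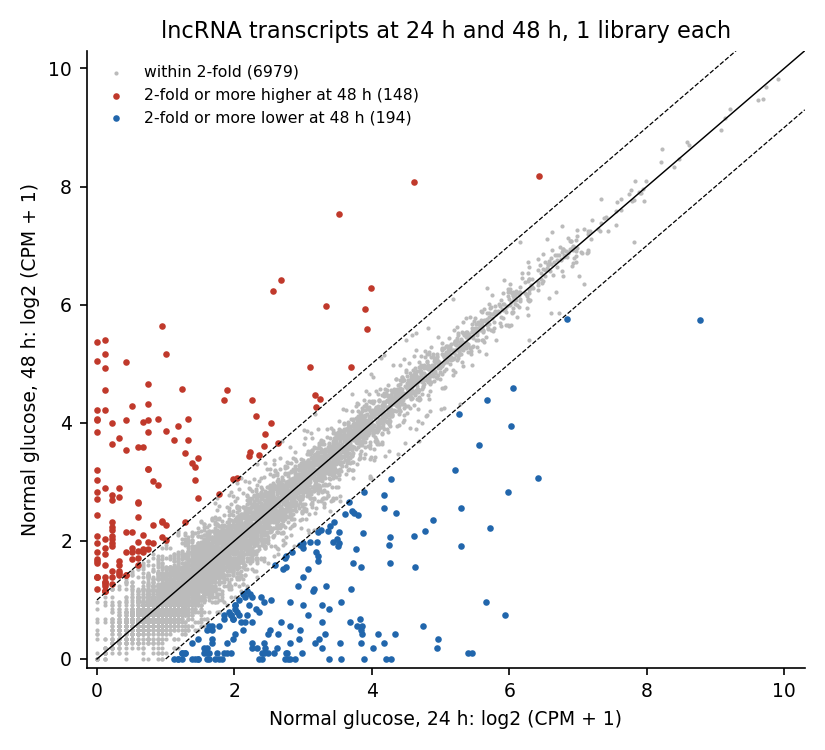
Each point is 1 of 7321 measured lncRNA transcripts, with log2 (CPM + 1) in the normal glucose library at 24 h on the x axis and at 48 h on the y axis. The solid line marks equal levels and the dashed lines 2-fold. Most points hug the line at all levels, while 148 red points (higher at 48 h) and 194 blue points (lower) scatter widely, some of them along an axis, near 0 in 1 library.

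The transcript with the highest ratio on the log2 (CPM + 1) scale was NONRATT008254.2 (chromosome 13, 52667957 to 52671441, spliced, 1339 nt). It had 0 reads in normal glucose at 24 h and 601 at 48 h, beside 635 in high glucose at 24 h and 423 at 48 h. The library at 24 h in normal glucose was thus the single one without reads. Its level of 40.5 CPM at 48 h was at least 160-fold higher than the floor of 3 counts in the 24 h library. It is 1 of 8 overlapping transcripts at the most abundant lncRNA locus of these libraries (chromosome 13, 52663050 to 52680992). The sum of that locus was 1789 CPM at 24 h and 1675 CPM at 48 h, 1.07-fold lower at 48 h (95% counting interval 1.05 to 1.09), so the locus as a whole lay within 2-fold while this member had 0 and 601 reads. The leading member of the locus (52663050 to 52680902) had 11386 and 13382 reads, which are 959 and 901 CPM.

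NONRATT030593.2 (chromosome X, 71552333 to 71555281, spliced, 2886 nt) ranked next, with 1 read at 24 h and 610 at 48 h. It was 488-fold higher at 48 h (87.2 to 19295). High glucose showed the opposite order, with 537 reads at 24 h and 5 at 48 h. Its locus holds 3 other listed transcripts, not all of which overlap it directly. The sum of that locus was 3.05-fold higher at 48 h (2.62 to 3.58). Here the locus sum pointed the same way as the transcript, with a much smaller ratio.

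Lowest at 48 h was NONRATT008808.2 (chromosome 13, 69908813 to 69917207, spliced, 3017 nt). It had 510 reads (42.9 CPM) at 24 h and 1 read at 48 h, 638-fold lower (114 to 25243). High glucose gave 752 and 7 reads, so both 48 h libraries were near 0 and both 24 h libraries were not. NONRATT000490.2 (chromosome 1, 82230930 to 82234051, 3122 nt, with no intron in its span) had 490 reads (41.3 CPM) at 24 h and 1 read at 48 h, 613-fold lower (109 to 24255). In high glucose it had 7 reads at 24 h and 456 at 48 h, the opposite order. Neither of these transcripts overlapped another listed one.

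Among the other 8 transcripts with the highest ratios, 2 on chromosome 6 were near absent at 24 h and abundant at 48 h in both media. At 27565694 to 27582980, a spliced transcript of 683 nt had 0 and 478 reads in normal glucose, and 0 and 707 in high glucose. At 963902 to 988572, a spliced transcript of 1368 nt had 1 and 515 reads, and 1 and 505 in high glucose. Another with this order in both media lay on chromosome 1 (276715771 to 276730514), with 0 and 261 reads in normal glucose and 0 and 108 in high glucose. A single-block transcript on chromosome 2 (29059739 to 29061626, 1888 nt) had 11 reads at 24 h and 726 at 48 h, and 12 and 14 in high glucose. A spliced one on chromosome 19 (25956769 to 25961106, 1654 nt) had 1 and 437 reads, and 25 in each high glucose library. In both of these the 48 h normal glucose library alone was high. The remaining 3 (chromosome 5, 144334170 to 144335141, chromosome 18, 28361287 to 28380933, and chromosome 6, 6696340 to 6709774) had a lower level at 48 h than at 24 h in high glucose.

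Among the other 8 lowest transcripts, 3 were near 0 in both 48 h libraries. They lay on chromosome 4 (179482558 to 179512484, 4545 nt), with 716 and 10 reads in normal glucose and 812 and 12 in high glucose, on chromosome 8 (63637983 to 63639583, 1601 nt), with 359 and 4 and with 416 and 8, and on chromosome 10 (45833261 to 45835013, 1753 nt), with 229 and 5 and with 285 and 4. In 2 more, the normal glucose library at 24 h alone was high. These were single-block transcripts on chromosome 17 (10485649 to 10488393), with 353 and 2 reads beside 11 and 4 in high glucose, and on chromosome 2 (266315013 to 266316297), with 592 and 14 beside 16 and 7. Another 2 were low in the 48 h normal glucose library alone. One on chromosome 6 (135717188 to 135720258) had 207 and 0 reads beside 118 and 104, and one on chromosome 14 (36750784 to 36755360) had 307 and 7 beside 467 and 486. The last, on chromosome 7 (142239123 to 142243459), had 218 and 0 reads beside 0 and 280, an opposite order in the media.

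**Figure D2:**
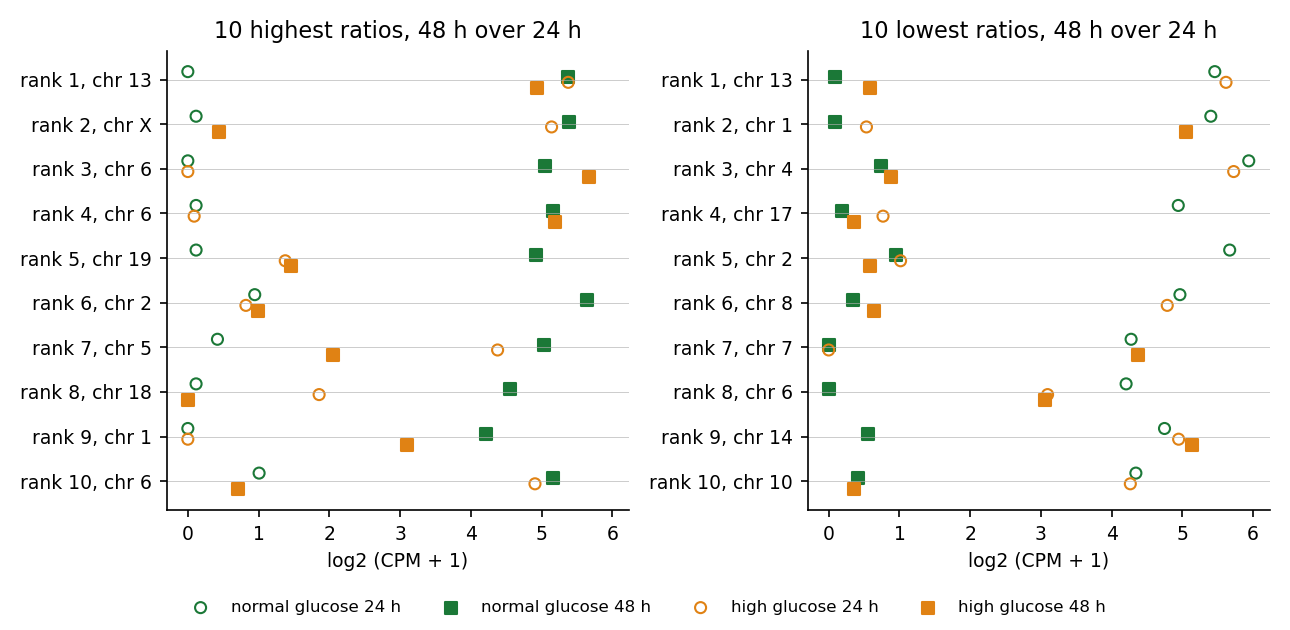
Levels of the 10 transcripts with the highest (left) and the 10 with the lowest (right) ratio of 48 h over 24 h in normal glucose, as log2 (CPM + 1), with 1 point for each of the 4 libraries (green normal glucose, orange high glucose, open circles 24 h, filled squares 48 h). The green pairs are far apart in every row because the rows were chosen for that, whereas the orange points follow the green ones in some rows, swap sides in others and sit together in the rest.

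Measured by CPM, the transcripts with the largest differences were other ones than the 20 with the most extreme ratios. The largest difference upward was on chromosome 10 (48880225 to 48881896, spliced, 718 nt), with 23.6 CPM (280 reads) at 24 h and 269.7 CPM (4006 reads) at 48 h, 11.4-fold higher (10.1 to 12.96), while neither high glucose library listed it. A single-block transcript of 3027 nt on the same chromosome (31237556 to 31240582) stood at 85.3 and 289.9 CPM, 3.40-fold higher (3.17 to 3.64), and in high glucose at 12.6 and 107.6 CPM. A spliced transcript on chromosome 3 (62486953 to 62491356) stood at 10.5 and 184 CPM, with 160.5 and 43.0 CPM in high glucose. The other 2 of these 5 were on chromosome 7 (23543124 to 23548539), at 299 and 395.5 CPM and so within 2-fold, and on chromosome 3 (127528410 to 127530493), at 5.39 and 84.6 CPM. The largest difference downward was on chromosome 10 (14088182 to 14089332, spliced, 905 nt), with 438 CPM (5204 reads) and 52.6 CPM (782 reads), 8.32-fold lower (7.72 to 8.98). In high glucose it had 53.9 CPM at 24 h and 14.6 CPM at 48 h, so the normal glucose library at 24 h was far above the other 3. Of the next 4 differences downward, 3 were within 2-fold. They came from abundant transcripts on chromosome 16 (19384862 to 19390410, 828 and 713 CPM), chromosome 20 (19483978 to 19485844, 225 and 132 CPM) and chromosome 3 (6539099 to 6581345, 786 and 710 CPM). The exception, on chromosome 6 (6696170 to 6709782), had 84.4 and 7.40 CPM. The 342 transcripts past 2-fold made up 28.8% of the CPM differences summed over all transcripts that were higher at 48 h and 35.4% of those summed over all that were lower.

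Transcripts with the highest levels per length differed little. A spliced transcript of 217 nt on chromosome 12 (39957131 to 39959077) had the highest FPKM, 3924 at 24 h and 3803 at 48 h, 1.03-fold lower (1.00 to 1.06). In high glucose it stood at 3469 and 1207 FPKM. Next came the leading member of the chromosome 13 locus, at 933 and 877 FPKM, the chromosome 16 transcript named above, at 600.2 and 517 FPKM, and a spliced one on chromosome 2 (193863237 to 193868647), at 503 and 540 FPKM. A single block of 210 nt on chromosome 3 (143223269 to 143223478) had 299.9 and 319.6 FPKM. All 5 lay within 2-fold. Of the 100 transcripts with the highest FPKM at 24 h, 86 were also among the 100 highest at 48 h.

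The kinds of transcript differed somewhat in how often they lay past 2-fold, against 4.67% overall. Spliced transcripts that overlapped other listed transcripts had the largest part past 2-fold among the 4 structural kinds, 138 of 2033 (6.79%), with 58 higher and 80 lower. Spliced transcripts alone at their locus had 83 of 1973 (4.21%), single-block transcripts alone 111 of 2824 (3.93%) and overlapped single-block transcripts 10 of 491 (2.04%). By length, the share was 3.22% under 500 nt and 6.90% at 2000 nt or more. By mean CPM over both libraries it was 2.03% under 1 CPM, 4.84% from 1 to 5 CPM, 6.89% from 5 to 20 CPM and 4.27% at 20 CPM or more. A share at low CPM is held down by the pseudocount. This also bears on the shares by length, since the FPKM filter admits short transcripts at lower CPM than long ones. Of 109 Ensembl transcripts, 0 were higher and 3 lower, and of 226 newly assembled ones 9 were higher and 7 lower (7.08%, the highest share of any kind given here). With a pseudocount of 4 CPM the contrast by structure was small, with 2.17% of single-block and 2.27% of spliced transcripts past 2-fold (3.65% and 5.52% with 1 CPM). By overlap it was then 2.06% of those alone and 2.54% of those overlapped (4.04% and 5.86% with 1 CPM). Medians of all these kinds lay between -0.04 and 0.05 on the log2 scale. These are descriptions, with no test, since transcripts are not replicates of a culture.

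**Figure D3:**
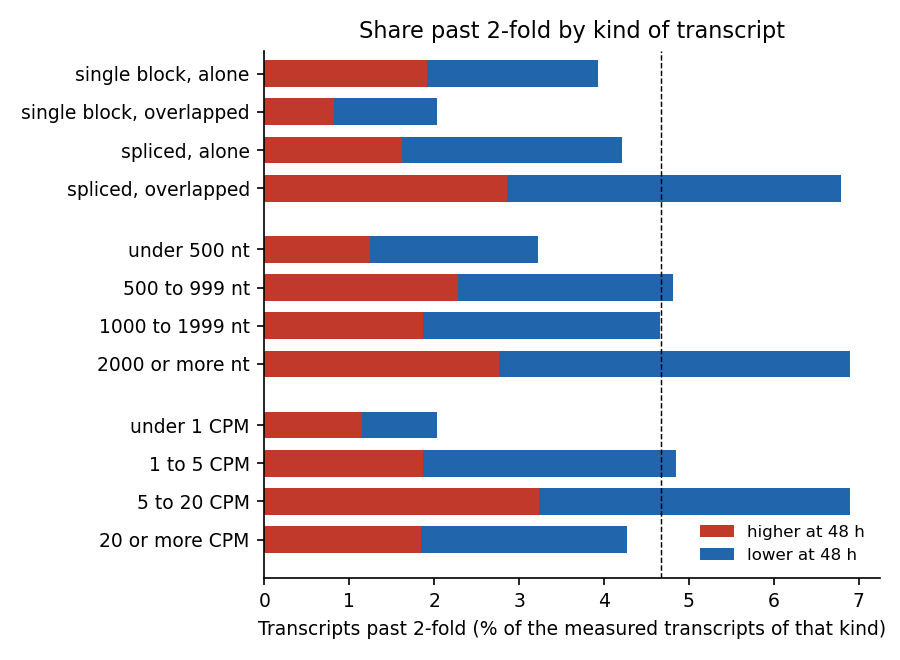
Bars give the percentage of measured transcripts of each kind that lay past 2-fold between 24 h and 48 h in normal glucose, split into higher (red) and lower (blue) at 48 h; the dashed line is 4.67%, the share over all kinds. Overlapped spliced transcripts (6.79%), those of 2000 nt or more (6.90%) and those of 5 to 20 CPM (6.89%) are the longest bars of the 12 drawn, which leave out the sources of the identifiers.

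Transcripts past 2-fold lay on every numbered chromosome and on X. Their share ran from 2.46% on chromosome 15 (6 of 244) to 35 of 500 on chromosome 2. Chromosome 10 had 9 higher and 25 lower of 618, and chromosome X 9 higher and 5 lower of 260. Among 573 windows of 1 Mb with at least 5 measured transcripts, 177 held a transcript past 2-fold and 6 held 3, the most in any window. No window had a median past 2-fold. The lowest median was -0.71, on chromosome 10 from 110 to 111 Mb, where all 6 transcripts were below 0 and 3 were past 2-fold lower. The summed reads of that window, 130 at 24 h and 68 at 48 h, gave a ratio of 0.418 (0.307 to 0.565), beside a median of -0.31 in high glucose. Next was chromosome 9 from 95 to 96 Mb, at -0.68 with 6 of 6 below 0, at 5 loci. Chromosome 15 from 8 to 9 Mb followed, at -0.68 with 5 of 5 below 0. Those 5 transcripts lay at 2 loci, where overlapping transcripts may share reads. The highest medians were 0.43 on chromosome 1 (141 to 142 Mb), 0.41 on chromosome 4 (78 to 79 Mb) and 0.38 on chromosome 4 (170 to 171 Mb), with 0 transcripts past 2-fold in any of these 3 windows.

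Some measured transcripts were listed at one time alone. Of the measured transcripts, 20 had no read at 24 h and at least 20 at 48 h (24 to 601 reads, median 74), and 19 had no read at 48 h and at least 20 at 24 h (20 to 218, median 51). Against 3 counts in the library at 0, these were between at least 6.40-fold and at least 160-fold higher, or between at least 8.34-fold and at least 90.9-fold lower. All of the first 20 and 18 of the 19 were spliced, and 17 and 14 of them overlapped another listed transcript. Of all measured transcripts, 54.7% were spliced and 34.5% overlapped another. The sum of the locus was past 2-fold in the same direction for 7 of the 20 and 12 of the 19, those alone at their locus included. In high glucose, 8 of the 20 had reads at both times and 2 had none at either, while 8 of the 19 had reads at both and 4 at neither. Examples alone at their locus were a transcript on chromosome 5 (86585114 to 86586746), with 0 and 107 reads in normal glucose and 0 and 173 in high glucose, and an Ensembl transcript on chromosome 7 (83989468 to 83991369), with 164 and 0 reads and with 181 and 0 in high glucose. Both had the same order of times in both media. A transcript on chromosome 1 (175981027 to 175981783), also alone, had 128 reads at 24 h in normal glucose and none in the other 3 libraries.

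Overlapping transcripts of a locus were compared with the sum of the locus, since the counts alone do not show how reads were split among forms. Forms here means the transcripts chained into a locus by overlapping spans. Whether they belong to the same gene or strand was not analysed. Of the 342 transcripts past 2-fold, 194 were alone at their locus and 148 overlapped at least 1 other listed transcript. For 44 of the 148 (29.7%) the sum of the locus was also past 2-fold in the same direction. For 103 it lay within 2-fold and for 1 it was past 2-fold the other way. The sum includes the reads of all listed forms of the locus. The median log2 ratio of the 62 overlapped transcripts that were higher was 1.71, and that of their locus sums 0.48. For the 86 that were lower the medians were -1.58 and -0.72. Over the 6201 loci with a measured transcript, 240 sums (3.87%) were past 2-fold, with 104 (1.68%) higher and 136 (2.19%) lower.

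**Figure D4:**
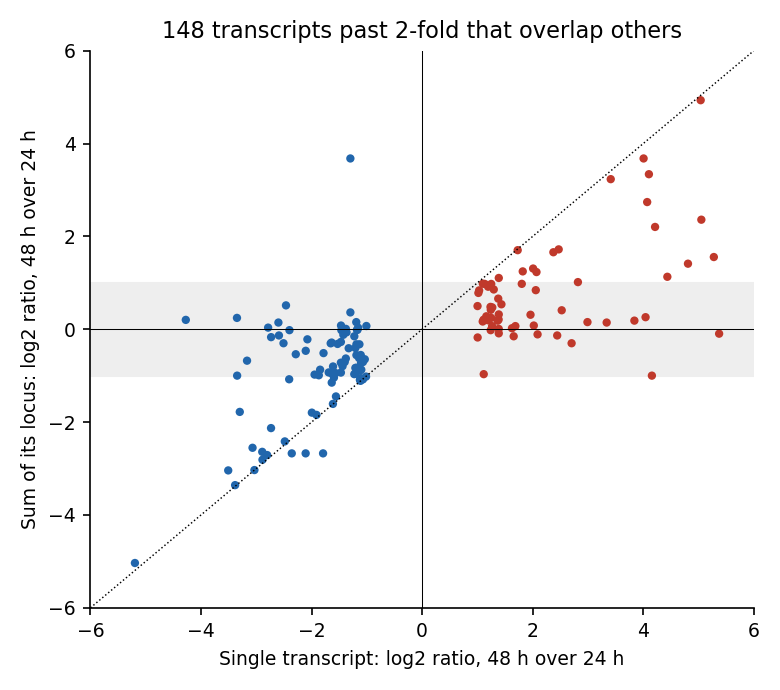
Log2 ratios of 48 h over 24 h in normal glucose for the 148 overlapped transcripts past 2-fold (x axis, red higher and blue lower at 48 h) and for the sum of all listed transcripts at the same locus (y axis). The grey band is within 2-fold and the dotted line marks equal ratios. 103 of the points lie in the band, among them some of the largest single ratios.

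At 16 loci, 2 or more transcripts were past 2-fold, and at 11 of these they went in opposite directions. The sum of the locus was past 2-fold at 1 of the 11. The clearest exchange was on chromosome 6, between nearly coincident spliced forms. The form at 6696170 to 6709782 (821 nt) had 1003 reads at 24 h and 110 at 48 h, whereas the form at 6696340 to 6709774 (766 nt) had 12 and 518. High glucose showed the reverse, 115 and 1284 reads for the first form and 454 and 9 for the second. The locus sum was 85.5 CPM at 24 h and 42.3 CPM at 48 h in normal glucose, 2.02-fold lower without the pseudocount (1.83 to 2.24), and 36.3 and 90.9 CPM in high glucose. At this locus, the first form therefore made up most reads in normal glucose at 24 h and in high glucose at 48 h. The second made up most of the locus reads in the other 2 libraries.

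A second exchange with the same pairing of libraries lay further along chromosome 6. A form at 86785788 to 86810834 (3645 nt) had 166 reads at 24 h and 888 at 48 h, and a longer one at 86785788 to 86812078 (4452 nt) had 781 and 344. In high glucose they had 840 and 227, and 312 and 1080. The sum over the 6 forms of that locus was 97.8 and 103.5 CPM in normal glucose, 1.06-fold higher (0.980 to 1.14). On chromosome 2, a form at 44279208 to 44293290 (633 nt) had 142 and 443 reads and one at 44279291 to 44294436 (749 nt) had 158 and 6. The high glucose libraries resembled the 48 h normal glucose one there, with 471 and 442 reads of the first and 3 and 0 of the second. On chromosome 18, a form at 28397343 to 28414927 had 16 and 338 reads and one at 28397387 to 28415107 had 312 and 52, while the locus sum was 1.11-fold higher (1.02 to 1.20). On chromosome 7, where 1 of 6 forms went from 218 reads to none, the locus sum was 85.8 and 98.9 CPM, 1.15-fold higher (1.06 to 1.25).

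The sums of some loci were past 2-fold, in most cases named here mainly through 1 form. Among the 719 loci with 2 or more measured transcripts, 26 sums (3.62%) were past 2-fold, with 16 (2.23%) higher and 10 (1.39%) lower. The highest ratio of sums on the log2 (CPM + 1) scale was on chromosome 3 (62483767 to 62491356, 5 forms), at 13.6 and 185.5 CPM in normal glucose, 13.7-fold higher (11.7 to 16.1), and at 163.5 and 43.6 CPM in high glucose. It came almost entirely from 1 form, with 125 and 2738 reads. Another form there had 35 and 9 reads, so this locus is also among the 11 with opposite directions. Next were a locus on chromosome X (77020429 to 77026190), at 0.926 and 18.5 CPM and also higher at 48 h in high glucose (0.575 and 25.4 CPM), and one on chromosome 8 (78901063 to 78949169), at 0.337 and 11.6 CPM beside 11.0 and 10.8 CPM in high glucose. The remaining 2 of the 5 highest were on chromosome 7 (70351820 to 70356305), with 21 and 260 reads beside 301 and 23 in high glucose (11.9-fold lower), and on chromosome 6 (27565694 to 27589496), with 79 and 569 beside 100 and 774. The lowest ratio of sums was on chromosome X (112941187 to 112983720), at 52.6 and 5.52 CPM, 9.53-fold lower (7.56 to 12.2), beside 4.54 and 2.32 CPM in high glucose. On chromosome 4 (29082368 to 29092718) all 3 forms were past 2-fold lower, with 146 and 31, 32 and 1, and 49 and 0 reads, and the sum was 8.87-fold lower (6.11 to 13.3), beside 3.88-fold lower in high glucose. On chromosome 10 (15349613 to 15373659) the sum was 7.28-fold lower (5.40 to 10.0), beside 1.12-fold higher in high glucose. On chromosome 1, 2 loci (190555142 to 190561420 and 197907480 to 197911066) were 4.78-fold (3.91 to 5.88) and 3.92-fold (3.01 to 5.17) lower, and in high glucose 6.43-fold and 3.81-fold lower. Except on chromosome 4, each of these loci differed mainly through 1 form. Their other forms had few reads, differed less or went the other way. At the first chromosome 1 locus, 1 form had 455 and 73 reads and the other 15 and 50.

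The time ratio in high glucose shares no library with that in normal glucose, and the values are set side by side here without a test of the difference, which 1 library per group does not allow. In high glucose 506 transcripts (6.91%) were past 2-fold, with 188 (2.57%) higher and 318 (4.34%) lower at 48 h. Of the 148 that were higher in normal glucose, 31 were past 2-fold higher in high glucose, 34 past 2-fold lower and 83 within 2-fold. Their median log2 ratio was 1.81 in normal glucose and 0.00 in high glucose. Of the 194 that were lower, 44 were past 2-fold lower in high glucose, 25 past 2-fold higher and 125 within 2-fold, with medians of -1.64 and -0.09.

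**Figure D5:**
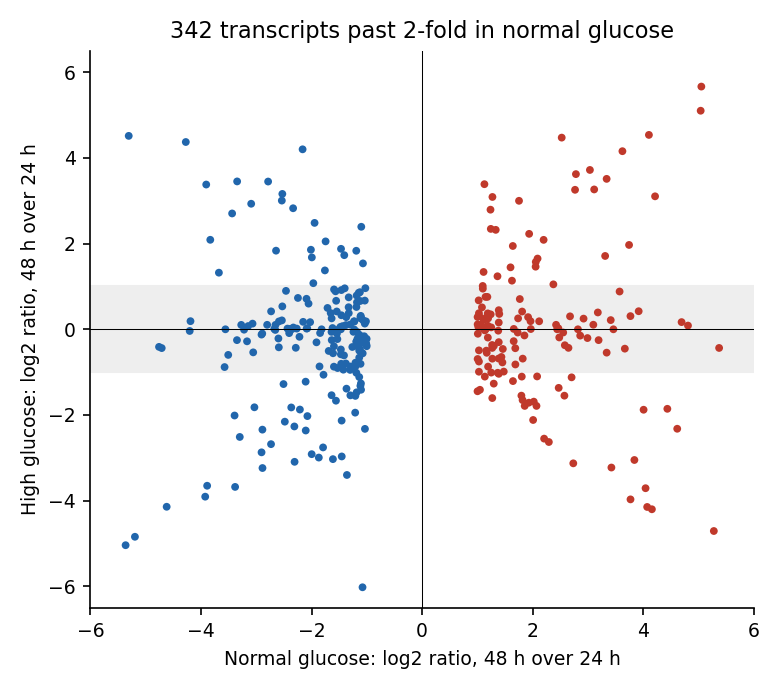
Log2 ratios of 48 h over 24 h for the 342 transcripts past 2-fold in normal glucose (x axis, red higher and blue lower at 48 h), with the ratio of the same transcript in high glucose on the y axis. The grey band is within 2-fold. Most points lie in the band (83 red and 125 blue), and outside it red points are divided between both sides (31 above, 34 below) while blue ones are more often below (44) than above (25).

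Each of the 342 was also placed by whether its level in a high glucose library lay nearer to the 24 h or to the 48 h normal glucose library on the scale of log2 (CPM + 1). The 24 h high glucose library lay with 24 h and the 48 h one with 48 h for 79 transcripts (23.1%), and both lay with the opposite time for 73 (21.3%). For 96 (28.1%) the 24 h normal glucose library stood alone against the other 3, and for 94 (27.5%) the 48 h normal glucose library did. Among the 194 transcripts alone at their locus these counts were 42, 39, 54 and 59, and among the 64 that were 8-fold apart 17, 17, 10 and 20. In 75 of the 342 a high glucose level lay within 0.25 of the midpoint on that scale. Over both directions, the transcripts that followed time in both media were thus about as many as those in which the times were crossed between the media. By direction these counts were 30 and 37 of the 148 higher transcripts, and 49 and 36 of the 194 lower ones.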

How the data were processed

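Counts per lncRNA transcript were deposited for 4 libraries, 1 per group, as raw read counts per the file headers. Each table lists transcripts that had a read. The deposited FPKM values stand in the same tables, per the file headers, and transcript lengths (another value, in nt) with the 24 h normal glucose library. TopHat2 2.1.0, Cufflinks and the genome build rn6 (Rnor_6.0) are named in the submitters' processing notes without their roles. How reads were counted, whether strand was used and which annotation release applied were not given in the sources used here, so reads of overlapping or antisense transcripts may not be separated. The libraries were strand-specific, from total RNA, per the labels' protocols.

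Tables were joined by transcript, with 0 where a transcript was not listed. The total behind the FPKM values, 11877876 at 24 h and 14855792 at 48 h in normal glucose, was recovered as the median of count over FPKM and length, and CPM used it. In each 24 h library 2 transcripts departed from it by over 1%. Whether it counts reads or fragments was not stated. Lengths of 40 measured transcripts were recovered from it. Single-block transcripts are those whose length fills their span. A locus is a chain of transcripts, each sharing at least 1 base of its span with another. Ratios used log2 (CPM + 1), which understates differences of low transcripts, with a 2-fold threshold. Folds of named items are CPM ratios with exact conditional (Clopper-Pearson) 95% counting intervals, or bounds against 3 counts. The interval code was tested on simulated data. With 1 library per group no test was run. Scaling factors of edgeR 4.0.16 (TMM) and DESeq2 1.42.0 served as alternatives, as did other pseudocounts, filters and thresholds, FPKM and locus sums. The rule named the 10 highest and 10 lowest ratios, the 5 largest differences in CPM each way, the 5 highest mean FPKM values over both normal glucose libraries, the 5 highest and 5 lowest sums of loci with 2 or more measured transcripts, and the 3 highest and 3 lowest windows. Examples of unlisted transcripts and of loci with opposite directions were chosen after their values were seen, as were the placing by nearer library and the crossing of structure with overlap. The comparison and all lists were chosen with earlier results of these data known. None of the identifiers matched the RefSeq gene table (0 matches).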

Additional observations from a re-analysis of the deposited data

Results flagged for a closer look

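The named transcripts past 2-fold in normal glucose numbered 26, and 8 of them were past 2-fold the opposite way with time in high glucose, while 10 were past 2-fold the same way. Over all 342 transcripts past 2-fold in normal glucose, 59 (17.3%) were past 2-fold the opposite way in high glucose and 75 (21.9%) the same way. With 1 library per group the difference between the media was not tested. NONRATT030593.2 had a log2 ratio of 48 h over 24 h of 5.28 in normal and -4.71 in high glucose, and NONRATT000490.2 of -5.31 and 4.51. The transcript on chromosome 5 (144334170 to 144335141) had 4.62 and -2.32, that on chromosome 18 (28361287 to 28380933) 4.44 and -1.86, and that on chromosome 3 (62486953 to 62491356) 4.01 and -1.88. The transcript on chromosome 7 (142239123 to 142243459) had -4.27 and 4.37. The exchanging forms on chromosome 6 had 4.16 and -4.20 (6696340 to 6709774) and -3.35 and 3.45 (6696170 to 6709782).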

How the results depend on the processing

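The counts past 2-fold (148 higher, 194 lower) stayed within 1.5 times under TMM factors, size factors, libraries rescaled to the same sum, FPKM, a filter on normal glucose alone, no filter, locus sums and a counting interval wholly beyond 2-fold (128 and 165). They were 267 and 315 with a pseudocount of 0.25 CPM, 72 and 91 with one of 4 CPM, 48 and 72 with a filter at 5 FPKM, and 64 and 79 past 4-fold. The median log2 ratio of 0.01 became -0.0043 with the same sum, 0.026 with the filter at 5 FPKM and -0.018 with no filter. The share of transcripts below 0, 48.9%, became 50.5%, 45.7% and 52.7%, so which direction holds most small ratios depends on these settings. The counts of unlisted transcripts (20 at 24 h, 19 at 48 h) were 5 and 5 with the filter at 5 FPKM, 37 and 30 with none, and 3 and 6 as loci. Measured transcripts alone made up 6.83% of the total at 24 h and 6.94% at 48 h. As locus sums, 3 named log2 ratios reversed, that of NONRATT008254.2 to -0.094, and those on chromosome 6 (6696340 to 6709774) to -0.998 and chromosome 7 (142239123 to 142243459) to 0.20. Some other named ratios kept their direction but were much smaller as locus sums. Examples lay on chromosome 19 (25956769 to 25961106, from 4.81 to 1.41), chromosome 18 (28361287 to 28380933, from 4.44 to 1.13) and chromosome 6 (27565694 to 27582980, from 5.05 to 2.36). Pseudocounts of 4 and 0.25 CPM and the use of FPKM reversed no named ratio but altered the size of many. The log2 ratio of NONRATT008254.2, 5.37, was 3.47 with 4 CPM, 7.35 with 0.25 CPM and 4.96 with FPKM. For NONRATT008808.2, -5.36 became -3.53, -7.09 and -3.90. The share past 2-fold by kind also depended on the pseudocount, as given above. No paired analysis was possible because each group has 1 library, and none could be left out.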
